A study of Mus musculus with 6 samples.

Results

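Kruppel-like factors (KLFs) are zinc-finger transcription factors that bind CACCC and GC-rich elements in promoters and enhancers. The 8 described here, Klf1, Klf2, Klf3, Klf4, Klf6, Klf9, Klf10 and Klf13, were taken as every probe set whose platform annotation named 1 gene equal to one of these symbols. That gave 27 probe sets, with 7 each for Klf3 and Klf9, 5 for Klf6, 3 for Klf13, 2 for Klf4 and 1 each for Klf1, Klf2 and Klf10. They stand among 45037 probe sets and 18193 genes measured. Arrays came from bone marrow erythroblasts of 3 knockout mice lacking the locus of miR-144 and miR-451 (KO 493, 548 and 551) and of 3 wild-type mice (WT 497, 504 and 550). All 6 samples were freshly isolated cells positive for Ter119, an erythroid surface antigen, and for CD71, the transferrin receptor, with high forward scatter, which selects large cells. Total RNA of each mouse was hybridised to 1 Affymetrix Mouse Genome array. The numbers come from the sample titles and were read as mouse numbers. Strain, age, sex and litter were not analysed here, nor were the microRNAs themselves, so genotypes rest on the labels.

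Klf1 is the erythroid member: it activates adult beta-globin and many genes of haem synthesis, the red cell membrane and the cell cycle. In mouse erythroid cells KLF1 switches on Klf3, whose product recruits the corepressor CtBP and dampens many of the same CACCC elements. Klf2, Klf4, Klf6 and Klf10 respond quickly to signals and are also used by endothelial, myeloid and lymphoid cells. Klf9 is induced by glucocorticoid and thyroid hormones and Klf13 was studied first in T cells. In zebrafish, miR-144 represses a KLF gene, klfd, and through it embryonic alpha-globin. No test of direct targeting was made here.

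The deleted locus lies on chromosome 11, and RefSeq (build GRCm38.p6) places its mature microRNAs close together on the plus strand. miR-144-5p lies at chr11:78073010-78073032, miR-144-3p at chr11:78073047-78073066 and miR-451a at chr11:78073186-78073207. They are printed because they are what the KO cells lack. Capitals mark the seed, bases 2 to 8 from the 5′ end, and no pair of the 3 shares a seed.

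miR-144-5p: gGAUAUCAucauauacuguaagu

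miR-144-3p: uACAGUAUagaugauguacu

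miR-451a: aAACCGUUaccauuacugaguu

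Values below are log2 of the authors' probe-set intensities, and differences are KO minus WT on that scale with limma's moderated standard error (SE). "Called" means an adjusted p under 0.05 after Benjamini-Hochberg adjustment over all 45037 probe sets. An array probe set has its own brightness, so levels of different probe sets or genes were not compared. Of erythroid genes, Tfrc, which encodes CD71, averaged 12.94 ± 0.01 on KO arrays and 12.98 ± 0.02 on WT arrays (SD, n = 3 each). Slc4a1, the band 3 anion exchanger, averaged 13.04 ± 0.03 on KO arrays and 13.11 ± 0.01 on WT arrays. These are the brightest probe sets. The others differed by -0.20 to -0.07 for Tfrc and by -0.41 to -0.11 for Slc4a1. Such erythroid values do not measure the purity of the sort. Markers of other marrow cells, among them bright neutrophil genes, are given below. Of 11 erythroblast markers listed, 8 were measured, 7 were lower in KO on average and the median was -0.11. Limma called 0 of the 8, and at an unadjusted p under 0.05 there were 0 too. In 4 of the 8 every KO value lay below every WT value, against 16.2% of all genes. Rhag, a subunit of the Rhesus complex, was at -0.14 ± 0.09. One probe set, that of Hba-a1, lay near the bottom of the range, at 1.24 to 3.12 in KO and 2.69 to 3.11 in WT. The actin control's 3′ minus 5′ log2 signal was 1.82 to 1.86 on KO arrays and 1.65 to 1.67 on WT arrays, whereas the Gapdh control's was at most 1.05 on KO arrays and at most 1.09 on WT arrays. Array medians were 5.62 to 5.68 for KO and 5.73 to 5.78 for WT. What part these differences have in the results was not tested.

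Across the family, erythroblasts without miR-144 and miR-451 had lower mean signals of Klf3, Klf4, Klf6 and Klf10, with 95% intervals below 0 at the brightest probe set of each. The intervals of Klf1, Klf2, Klf9 and Klf13 spanned 0. None of these differences passed the test over all probe sets. In bulk RNA, fewer cells of a type and less RNA per cell cannot be told apart. Limma called 0 of the 27 KLF probe sets, against 0.355% of all probe sets. In 22 of the 27 the KO mean was lower, and the median difference was -0.40, against -0.04 over all probe sets, of which 56.4% were lower. An unadjusted p under 0.05 with KO lower was found for 11 of the 27, against 12.2% of all probe sets, and with KO higher for 0. Of these 11, Klf3 gave 4, Klf6 4, Klf4 2 and Klf10 1. Probe sets of 1 gene are repeat readings on the same arrays, so counts and shares of KLF probe sets are not of independent genes. Every KO value lay below every WT value in 6 of the 27, against 15.3% of all probe sets. When limma's variance prior was allowed to follow intensity and was made robust, 3 were called, all lower in KO, against 1.83% of all probe sets called lower in that fit. They were 2 probe sets of Klf3 and the single one of Klf10. Among the 23 KLF probe sets at or above the median level, 47.8% had an unadjusted p under 0.05 with KO lower, against 15.2% of all 22522 such probe sets, and in 26.1% every KO value lay below every WT value, against 19.3%. Dropping dim probe sets before the fit left 23 KLF probe sets and called 2, the brightest of Klf3 and that of Klf10. That fit called 4.89% of all 22795 probe sets kept, 485 of them lower and 629 higher.

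**Figure D1:**
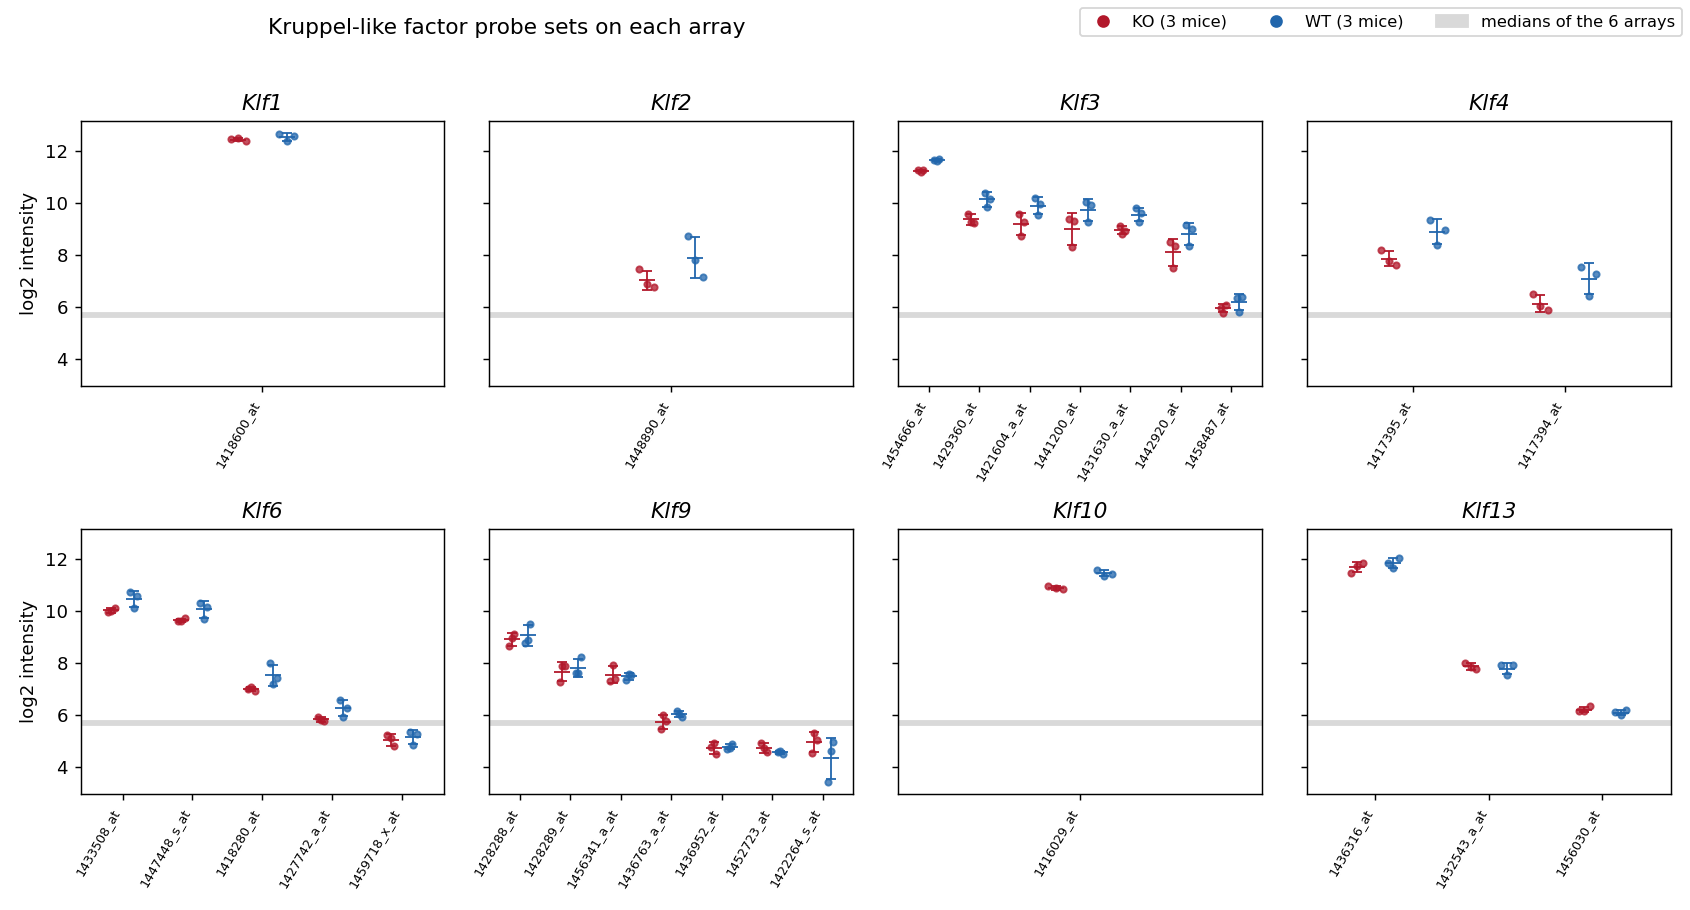
Log2 intensity (vertical axis) of all 27 KLF probe sets (horizontal axis, by gene and in order of level), with points for single mice and bars for the mean and SD of the 3 KO mice (left, red) and the 3 WT mice (right, blue). The grey band spans the medians of the 6 arrays, 5.62 to 5.78. All KO points sit under all WT points for Klf10, the brighter Klf4 probe set and the brightest of Klf3, while those of Klf1, Klf9 and Klf13 are mixed.

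Klf1, on chromosome 8 (GRCm38.p6, 84901982 to 84905291), was at 12.47, 12.49 and 12.39 in KO 493, 548 and 551, and at 12.66, 12.39 and 12.59 in WT 497, 504 and 550. The groups overlap, since WT 504 is as low as the lowest KO array. Its only probe set is very bright, at percentile 99.2 of all probe sets by KO mean and 99.3 by WT mean. Whether differences are reduced at such brightness was not tested. The Klf1 difference was -0.10 ± 0.11 (SE, n = 3 per group), with a 95% interval of -0.36 to 0.17 (limma adjusted p = 0.675). A difference in Klf1 was not detected with 3 mice per group, and the size that could be detected was not calculated. Without any 1 mouse the difference ranged from -0.17 to -0.04.

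Klf3, the CtBP-recruiting repressor on chromosome 5 (64803521 to 64832901), was read by 7 probe sets, and the KO mean was lower in all of them. Its brightest, 1454666_at, was at 11.29, 11.22 and 11.26 in KO and 11.66, 11.63 and 11.69 in WT. Here the groups are far apart for their spread: SDs were 0.04 in KO and 0.03 in WT, around means of 11.26 and 11.66. The difference was -0.40 ± 0.09 (SE, n = 3 per group), a KO to WT ratio of 0.76 in linear intensity, and limma did not call it (adjusted p = 0.111). With the intensity trend it was called (adjusted p = 0.00638), as it was after the filter on dim probe sets (adjusted p = 0.0399). The next brightest, 1429360_at, was at 9.60, 9.29 and 9.24 in KO and 10.41, 9.85 and 10.18 in WT, again without overlap. It gave the largest difference of the gene, -0.77 ± 0.18 (limma adjusted p = 0.109, and 0.0321 with the trend). Another probe set without overlap, 1431630_a_at, was at 9.13, 8.82 and 8.93 in KO and 9.80, 9.28 and 9.61 in WT, a difference of -0.60 ± 0.16.

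The other 4 Klf3 probe sets overlapped between the groups, with differences of -0.73 to -0.24. In all 4, KO 548 was the lowest KO array and WT 504 the lowest WT array, and SDs reached 0.61 in KO. 1441200_at, for example, was at 9.41, 8.32 and 9.33 in KO and 10.04, 9.26 and 9.95 in WT. The dimmest, 1458487_at, at 5.79 to 6.10 in KO and 5.83 to 6.39 in WT, lay close to the array medians. With all 7 averaged, the difference was -0.60 ± 0.20 (95% interval -1.06 to -0.14, limma adjusted p over gene means 0.157). WT 504 was the lowest WT array in 7 of 7 Klf3 probe sets, which are repeat readings of 1 gene, against 39.2% of all probe sets.

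Klf4, a factor that restrains proliferation in epithelia and drives monocyte differentiation, lies on chromosome 4 (55527137 to 55532475) and had the largest differences of the family. Probe set 1417395_at was at 8.21, 7.76 and 7.64 in KO and 9.34, 8.39 and 8.97 in WT. The groups do not overlap, and KO 493, the highest KO array, comes closest to WT 504, the lowest WT array. Its difference was -1.03 ± 0.27 (SE, n = 3 per group), a ratio of 0.49, with a 95% interval of -1.66 to -0.40 (limma adjusted p = 0.13). The other, 1417394_at, was at 6.49, 6.05 and 5.88 in KO and 7.56, 6.43 and 7.29 in WT, where KO 493 is above WT 504. It differed by -0.95 ± 0.31 (adjusted p = 0.176). Neither was called with the intensity trend (adjusted p = 0.0609 and 0.111). Without WT 504 the difference of the first was -1.29 and without WT 497 it was -0.81.

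Klf10, a TGF-beta-inducible factor on chromosome 15 (38291464 to 38300711), was at 10.94, 10.87 and 10.82 in KO and 11.57, 11.33 and 11.43 in WT. Every KO value is below every WT value, and SDs were 0.06 in KO and 0.12 in WT. The difference was -0.57 ± 0.11 (SE, n = 3 per group), a ratio of 0.68, with a 95% interval of -0.83 to -0.31. This was the smallest p of the family, 0.00133, with a limma adjusted p of 0.0834. It was called with the intensity trend (adjusted p = 0.00638) and after the filter on dim probe sets (adjusted p = 0.0332), and without any 1 mouse the difference stayed between -0.62 and -0.50.

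Klf6, an early-response factor on chromosome 13 (5861489 to 5870393), had a lower KO mean in 5 of 5 probe sets. The brightest, 1433508_at, was at 9.96, 9.98 and 10.12 in KO and 10.72, 10.12 and 10.55 in WT. WT 504 equals the highest KO array, while the other two WT arrays lie above all KO arrays. The difference was -0.44 ± 0.17 (limma adjusted p = 0.22), and 3 others were at -0.55 to -0.42, of which 1418280_at did not overlap between the groups (6.98, 7.05 and 6.91 in KO, against 7.98, 7.2 and 7.41 in WT). The dimmest, 1459718_x_at, which lay under the array medians, differed by -0.10 ± 0.18. In all 5 Klf6 probe sets WT 497 was the highest and WT 504 the lowest WT array.

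Klf2, the shear-stress and T cell quiescence factor on chromosome 8 (72319062 to 72321654), varied widely between mice of 1 genotype. It was at 7.46, 6.88 and 6.77 in KO and 8.73, 7.82 and 7.16 in WT, with SDs of 0.37 in KO and 0.79 in WT. The groups overlap, since KO 493 is above WT 550. The difference of -0.87 ± 0.40 (95% interval -1.81 to 0.07, limma adjusted p = 0.283) leans on WT 497, without which it was -0.45. No alternative called Klf2.

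Klf13, on chromosome 7 (63886351 to 63938915), and Klf9, on chromosome 19 (23141226 to 23168129), had 95% intervals that spanned 0 for every probe set. The brightest Klf13 probe set, 1436316_at, was at 11.46, 11.74 and 11.82 in KO and 11.82, 11.63 and 12.03 in WT, a difference of -0.15 ± 0.15 (95% interval -0.51 to 0.21). The other two Klf13 probe sets were at 0.09 and 0.12. For Klf9, 1428288_at was at 8.64, 8.94 and 9.12 in KO and 8.77, 8.88 and 9.50 in WT, a difference of -0.15 ± 0.22 (95% interval -0.68 to 0.38). WT 550 is the highest array and the others are mixed, so the groups overlap. The remaining 6 Klf9 probe sets ran from -0.30 to 0.62. The highest, 1422264_s_at, is dim, at 4.53, 5.29 and 5.02 in KO and 3.43, 4.61 and 4.94 in WT, and WT 497 sets its difference, which was 0.17 without that array. Averaged over probe sets, Klf9 was at 0.03 ± 0.15 and Klf13 at 0.02 ± 0.11.

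**Figure D2:**
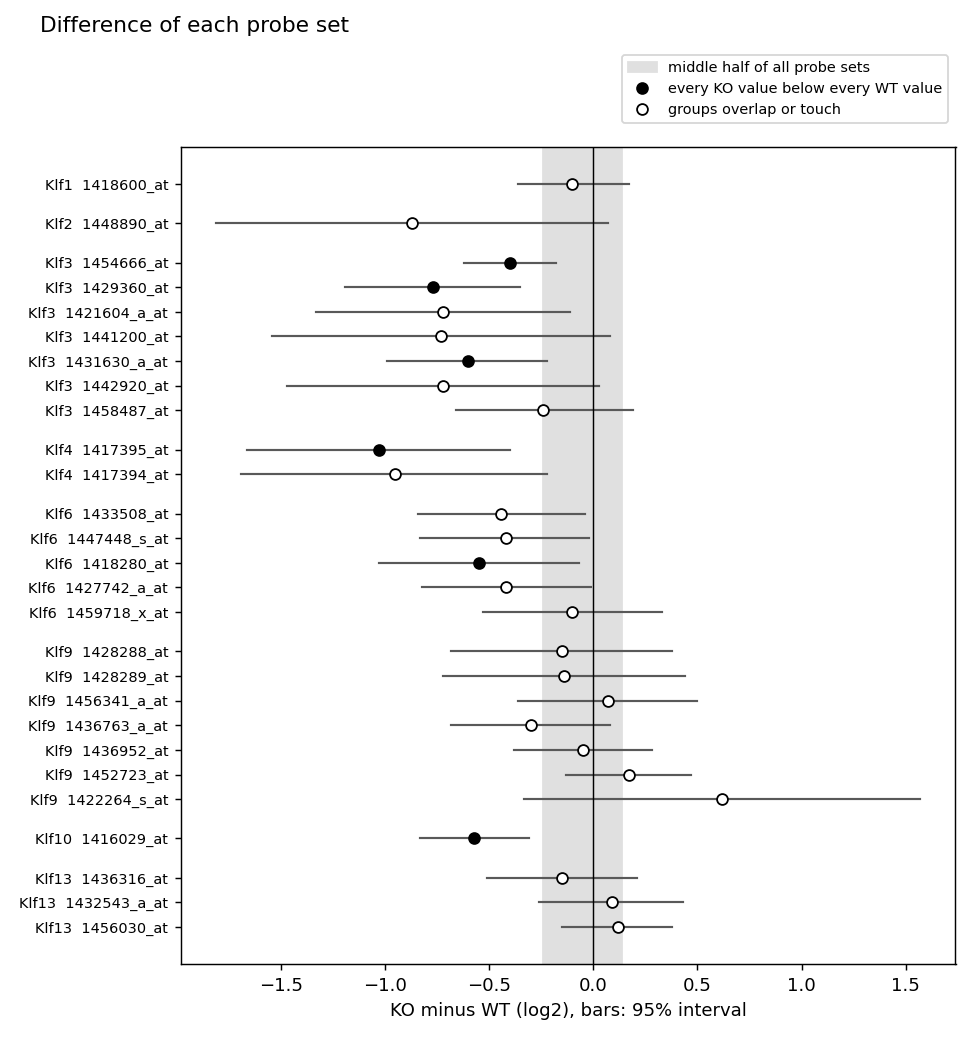
KO minus WT difference in log2 intensity (horizontal axis) with its 95% interval for each of the 27 KLF probe sets, filled where every KO value lay below every WT value. The grey band spans the quartiles of all probe sets, -0.24 to 0.14. Klf10, both Klf4 probe sets, 4 of 7 of Klf3 and 4 of 5 of Klf6 have intervals below 0, those of Klf1, Klf2, Klf9 and Klf13 span 0, and none was called after adjustment.

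Probe sets of 1 gene can read different transcript ends, so their differences were compared directly. Over 16752 pairs of a further probe set with the brightest of its gene, limma called 8 whose KO minus WT differences disagreed, and 0 of the 19 KLF pairs. An unadjusted p under 0.05 was found for 1 KLF pair, the dim Klf9 probe set 1422264_s_at, against 14.6% of all pairs. For Klf3, the difference of 1429360_at minus that of the brightest was -0.37 (95% interval -0.78 to 0.04, adjusted p = 0.388).

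The mice of 1 genotype were not alike for these genes. Among the WT arrays, WT 497 was the highest for 16 of the 27 KLF probe sets, against 33.6% of all probe sets, and WT 504 the lowest for 19 of 27, against 39.2%. Repeat readings of a gene weigh here too. Klf3 and Klf6 gave 5 each of the 16, and 7 and 5 of the 19. Among the KO arrays, the brightest probe sets of Klf2, Klf3, Klf4 and Klf10 were highest in KO 493. That of Klf1 was highest in KO 548, and those of Klf6, Klf9 and Klf13 in KO 551. Markers of other marrow cells mostly had lower KO means, as all 8 KLF genes had by their brightest probe set. The mean of each of the 6 marker lists was again highest among WT arrays in WT 497. Single markers did not all follow their list mean. The monocyte and macrophage markers Adgre1, Vcam1, Mertk, C1qa, C1qb and Ms4a7 were highest among WT arrays in WT 504. So were Elane and Nkg7, given below. Of 11 monocyte and macrophage markers all were lower in KO on average, with a median difference of -0.49. The mean of their log2 levels was 9.08 to 9.21 on KO arrays and 9.38 to 9.75 on WT arrays, and their summed linear intensity was 12460 to 13450 in KO and 15520 to 19250 in WT. Among them Ly86, a surface partner of a Toll-like receptor relative, differed by -1.06 ± 0.25 and Csf1r, the receptor for macrophage colony-stimulating factor, by -0.63 ± 0.18. Others differed little and overlapped between the groups: Vcam1 by -0.06 ± 0.14, Mertk by -0.12 ± 0.21, C1qb by -0.19 ± 0.14 and C1qa by -0.26 ± 0.19.

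The same held for B cell markers (6 of 7 lower, median -0.61, summed intensity 2966 to 4023 in KO and 4368 to 7504 in WT), with Igll1, a surrogate light chain of pre-B cells, at -0.54 ± 0.14 and Ebf1, a B lineage factor, at -0.64 ± 0.21, though its other probe sets ran from -0.91 to 0.46. For T and NK cell markers 6 of 7 were lower (median -0.63, 1126 to 1500 in KO and 1912 to 2777 in WT), with Nkg7, a cytotoxic granule protein, at -1.02 ± 0.28 and the T cell receptor subunit Cd3e at -0.99 ± 0.54. For eosinophil, basophil and mast cell markers 7 of 7 were lower (median -0.71, 2706 to 3062 in KO and 3672 to 6380 in WT), with Epx, eosinophil peroxidase, at -1.11 ± 0.26 and Cpa3, a mast cell protease, at -0.74 ± 0.18. Neutrophil markers were lower in 10 of 10 (median -0.29, 43270 to 48630 in KO and 50440 to 55310 in WT), with Elane, neutrophil elastase, at -0.86 ± 0.30 and Prtn3, proteinase 3, at -0.52 ± 0.21. Megakaryocyte markers were lower in 4 of 7 (median -0.07, 6239 to 7517 in KO and 6646 to 7053 in WT), with Itga2b, the platelet integrin alpha chain, at 0.24 ± 0.14 and its partner Itgb3 at -0.28 ± 0.16. Limma called 0 genes of these 6 lists, against 0.385% of all genes. An unadjusted p under 0.05 with KO lower was found for 6 of 11 monocyte and macrophage, 5 of 7 B cell, 1 of 7 T and NK cell, 6 of 7 eosinophil, basophil and mast cell, 3 of 10 neutrophil and 0 of 7 megakaryocyte markers, against 12.7% of all genes. The fit with an intensity trend called 1 marker of the 6 lists, Epx (adjusted p = 0.0439), against 2.04% of all genes called lower in that fit. The lowest marker value of the 6 lists was that of the T cell receptor subunit Cd3g, 3.94 in KO 548, under that array's lower quartile of 4.30. At the other end, S100a9 of the neutrophil list was at 13.36 to 13.4 in KO and 13.44 to 13.45 in WT. S100a8 was at 13.16 to 13.2 in KO and 13.26 to 13.29 in WT. Both lay far above the arrays' upper quartiles of 8.26 to 8.39, so these markers gave strong signal on every array. Detection calls were not used, so low values do not show whether a marker's transcript was present. What part other cells have in the KLF differences was not tested.

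**Figure D3:**
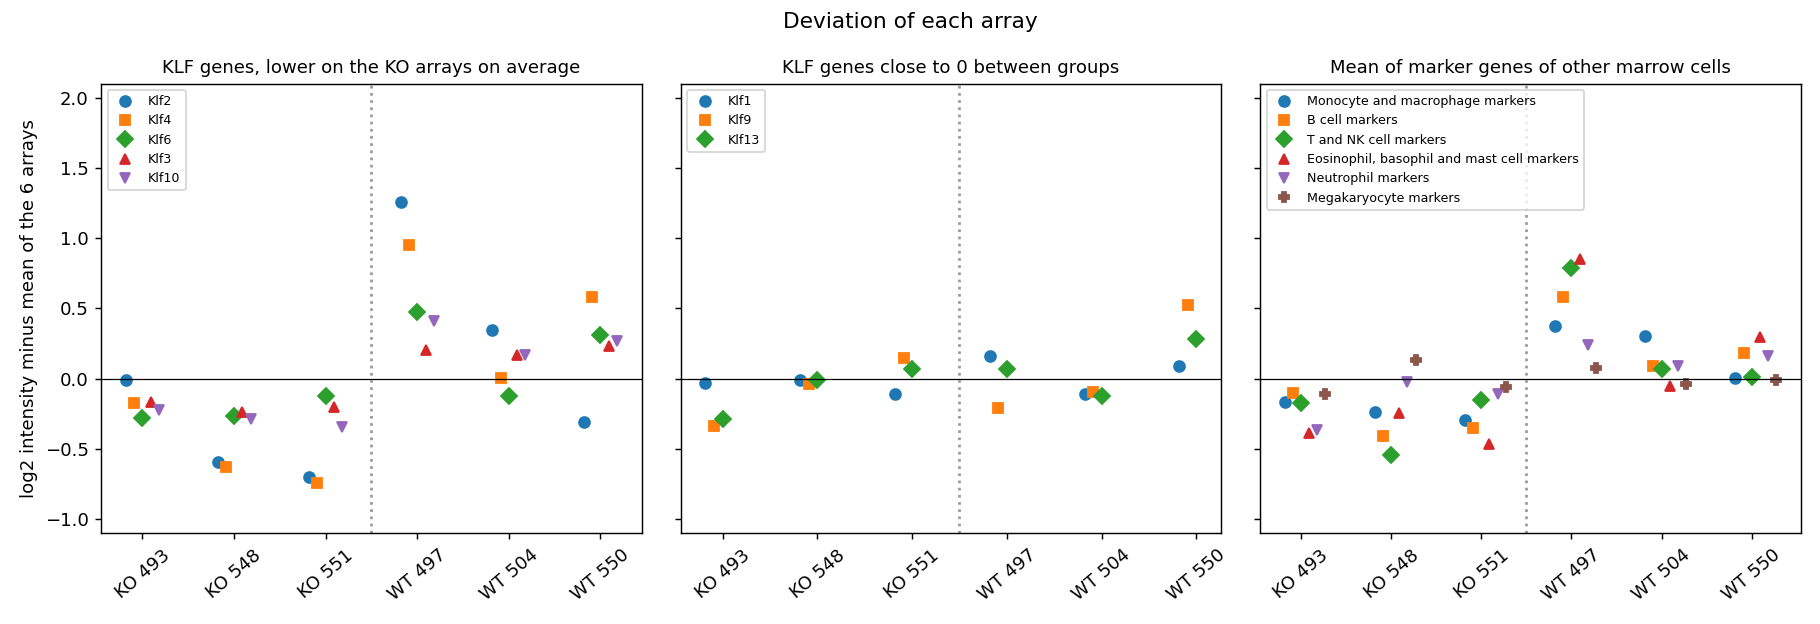
Log2 intensity on each array (KO left, WT right) minus the mean of the 6 arrays, for the brightest probe set of 5 KLF genes with lower KO means, for Klf1, Klf9 and Klf13, and for the mean of the marker genes of each other marrow cell type. The panels were grouped for display after the values were seen. Klf1, Klf2, Klf4, Klf6 and Klf10, like 5 of the 6 marker sets, are highest on WT 497. Klf9 and Klf13 are highest on WT 550, and Klf3, with an SD of 0.03 over WT arrays, is nearly level there.

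Klf2, Klf4, Klf6 and Klf10 are often induced together with immediate early genes, so that list was set beside them. All 16 measured immediate early genes had a lower KO mean, with a median of -0.42 against -0.04 over all genes. Limma called 0, and 5 had an unadjusted p under 0.05 with KO lower, against 12.7% of all genes. Zfp36, an RNA-binding protein that destabilises cytokine transcripts, was at 8.82, 9.12 and 8.87 in KO and 9.99, 9.49 and 9.40 in WT, a difference of -0.69 ± 0.18 (adjusted p = 0.133). The groups do not overlap. Dusp1, a phosphatase that shuts off MAP kinases, averaged 11.64 ± 0.04 in KO and 11.95 ± 0.05 in WT (SD, n = 3 each), also without overlap. It differed by -0.30 ± 0.10 (adjusted p = 0.167). With the intensity trend it was the only one of the 16 called, against 2.04% of all genes called lower in that fit.

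The rest of the KLF and SP family, for which 15 of 18 listed genes were measured, had a median of -0.11, and 10 of 15 were lower. None was called, 4 had an unadjusted p under 0.05 with KO lower, against 12.7% of all genes, and in 6 every KO value lay below every WT value, against 16.2% of all genes. Sp3, a GC-box factor that competes with Sp1, was at 9.85, 9.62 and 9.77 in KO and 10.29, 10.12 and 10.11 in WT, a difference of -0.43 ± 0.11 (limma adjusted p = 0.134, and 0.0482 with the trend). Klf5, known from gut and smooth muscle, was at 8.43, 8.13 and 8.23 in KO and 8.61, 8.75 and 8.98 in WT, a difference of -0.52 ± 0.14, and its other two probe sets were at -0.61 and -0.56. By the brightest probe set, 8 of the 8 KLF genes described here were lower, with a median of -0.42, 4 had an unadjusted p under 0.05, 3 had every KO value below every WT value, and 2 were called with the trend, against 2.04% of all genes called lower in that fit.

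Genes that KLF1 activates in mouse erythroid cells were mostly a little lower in KO on average. Of 35 listed, 28 were measured, 23 were lower, and the median was -0.17. Limma called 0. An unadjusted p under 0.05 with KO lower was found for 11 of the 28, against 12.7% of all genes, and with KO higher for 1, against 8.34%. In 17 of the 28 every KO value lay below every WT value, against 16.2% of all genes. The genes with the smallest p were Klf3, given above, and Tfr2, transferrin receptor 2, which had a higher KO mean, at 11.29, 11.53 and 11.34 against 10.84, 10.92 and 11.07 in WT. Its difference was 0.44 ± 0.12 (adjusted p = 0.135), and the groups do not overlap. The fit with an intensity trend called 7 of the 28 lower and 1 higher, against 2.04% and 2.37% of all genes, and these are named for that reason, after their values were seen. Beside Klf3 and Tfr2 they were the cell cycle genes E2f2 (-0.37 ± 0.12) and Cdkn2c (-0.36 ± 0.10), the adhesion molecule Icam4 (-0.38 ± 0.11), the actin-bundling membrane protein Dmtn (-0.37 ± 0.11), the survival gene Bcl2l1 (-0.33 ± 0.11) and the nuclear transport receptor Xpo7 (-0.18 ± 0.10). Further probe sets of Dmtn differed by -0.96 and -0.87, those of Xpo7 by -1.23 to -0.33 and those of Bcl2l1 by -0.88 to 0.13. The beta-globin gene Hbb-b2, the classic KLF1 target, was at 12.50, 12.55 and 12.45 in KO and 12.60, 12.69 and 12.63 in WT, a difference of -0.14 ± 0.10, and its other probe set differed by -0.31. It is named as background to Klf1, after its value was seen, and near-identical beta-globin copies may share its signal.

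Genes reported as set by the other KLFs in other cells had 13 of 16 measured, 10 lower and a median of -0.34, against -0.04 over all genes. Limma called 0, and 5 of the 13 had an unadjusted p under 0.05, all with KO lower, against 12.7% of all genes. Lgals3, galectin-3, which KLF3 represses in mouse tissues, was at 9.98, 9.89 and 9.97 in KO and 11.11, 10.29 and 10.72 in WT. The groups do not overlap, and the difference was -0.76 ± 0.20 (adjusted p = 0.136). Lgals3 is also abundant in macrophages. Tgfb1, a cytokine gene that KLF6 activates, was at 7.13, 7.47 and 6.94 in KO and 8, 7.56 and 7.96 in WT, a difference of -0.66 ± 0.18 (adjusted p = 0.143).

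KLF cofactors were lower in 7 of 20 measured members, and the median was 0.01, against -0.04 over all genes. Limma called 0, with 3 lower and 2 higher at an unadjusted p under 0.05, against 12.7% and 8.34% of all genes. The 2 higher were Hdac3 (0.35 ± 0.11) and Sin3b (0.28 ± 0.11), whose other probe sets ran from -0.18 to 0.29 for Sin3b. Siah1a, a ubiquitin ligase, was at -0.42 ± 0.12 (adjusted p = 0.155) and Kat2b, a histone acetyltransferase, at -0.31 ± 0.09 (adjusted p = 0.156). The trend fit called both, 2 of the 20, against 2.04% of all genes called lower in that fit. Of 15 factors upstream of KLF genes 9 were lower, with a median of -0.06. Limma called 0, and 2 of the 15 had an unadjusted p under 0.05 with KO lower, a share close to the 12.7% of all genes. Mef2c, a target of the ERK5 pathway that induces Klf2 and Klf4, was at 8.26, 7.92 and 7.89 in KO and 9.03, 8.91 and 8.71 in WT. Its difference was -0.86 ± 0.15 (adjusted p = 0.0706), called with the trend (0.0192) and after the filter on dim probe sets (0.032), and Mef2c is also a B cell and myeloid gene. Mef2a and Mef2d of the same list had higher KO means, at 0.36 ± 0.16 and 0.35 ± 0.2, with overlapping groups. Their other probe sets ran from -0.45 to 0.41 for Mef2a and were at 0.28 and 0.71 for Mef2d. Nr3c1, the glucocorticoid receptor, which induces Klf9, was at 10.37, 10.24 and 10.33 in KO and 10.77, 10.60 and 10.72 in WT, a difference of -0.38 ± 0.10 (adjusted p = 0.136, and 0.0339 with the trend, where it was called). Mef2c and Nr3c1 were the 2 of these 15 called with the trend, against 2.04% of all genes called lower.

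**Figure D4:**
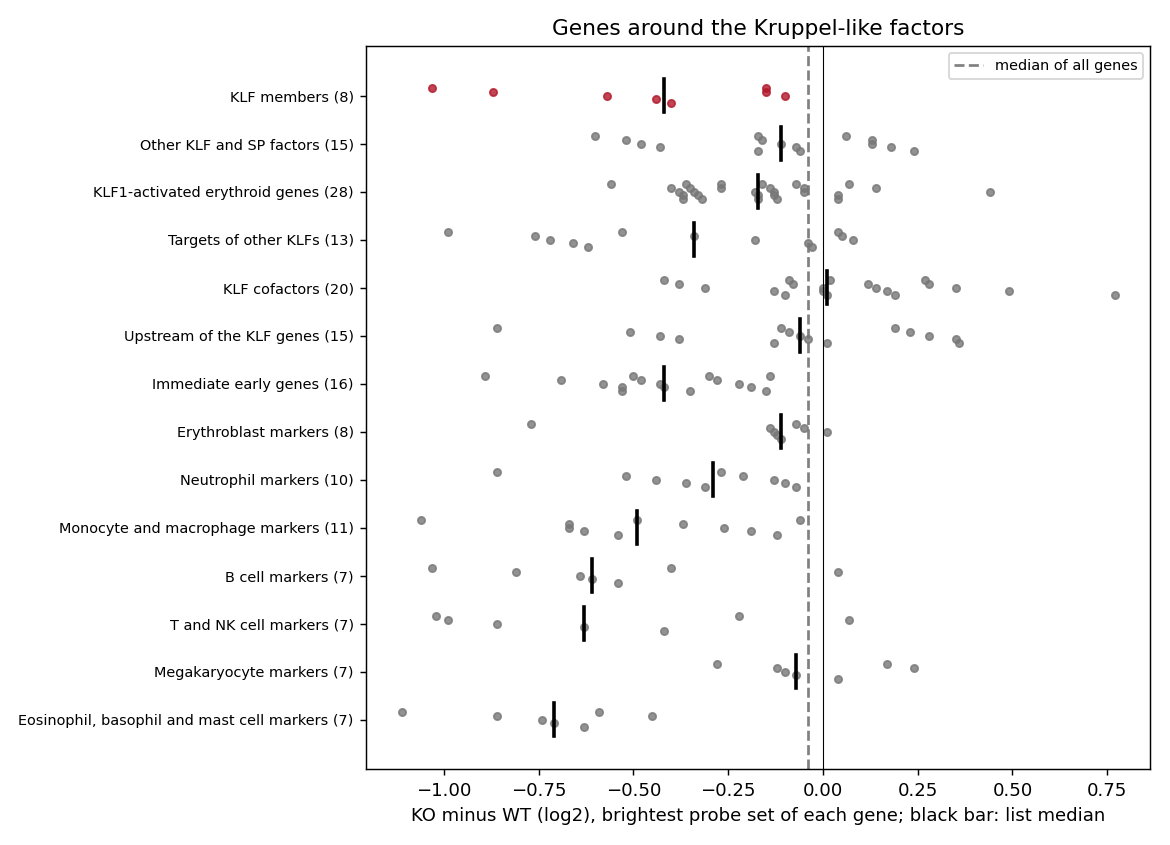
KO minus WT difference in log2 intensity (horizontal axis) of the brightest probe set of each gene, by list with the number measured, with black bars for list medians and a dashed line for the median of all genes, -0.04. The 8 KLF genes (red) have a median of -0.42, as do the immediate early genes, and the KLF cofactors one of 0.01.

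Promoters of 7 of the 8 genes were in the RefSeq table (GRCm38.p6, 250 bases before to 50 after the gene's start). They were searched on both strands for CCNCNCCC, a core of the KLF1 consensus. The shorter CACCC, which can overlap it, was searched too, as was GATAA, the core bound by erythroid GATA factors. CCNCNCCC was in 49.5% of all 32851 promoters of that length in the table, CACCC in 57.5% and GATAA in 25.4%. The window of Klf3 held 10 matches to CCNCNCCC, that of Klf4 9, Klf13 5, Klf2 4 and Klf6 3, while those of Klf1 and Klf9 held 0. Overlapping matches were each counted, so matches can share bases and are not separate sites. CACCC was matched 5 times for Klf3, 2 times for Klf1 and 1 time each for Klf2, Klf9 and Klf13. The window of Klf1 held 1 GATAA. These windows differ in base composition, with 51.3% G and C for Klf1, 76.7% for Klf3 and 74.3% for Klf4, and a match is only a match of letters. Klf1, Klf3 and Klf4 are printed below, 5′ to 3′ on the gene's strand, because they are the erythroid member and those with the most matches. Capitals mark bases within a CCNCNCCC match on either strand. The windows lie at chr8:84901732-84902031 (plus strand), chr5:64803271-64803570 (plus strand) and chr4:55532426-55532725 (minus strand).

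Klf1: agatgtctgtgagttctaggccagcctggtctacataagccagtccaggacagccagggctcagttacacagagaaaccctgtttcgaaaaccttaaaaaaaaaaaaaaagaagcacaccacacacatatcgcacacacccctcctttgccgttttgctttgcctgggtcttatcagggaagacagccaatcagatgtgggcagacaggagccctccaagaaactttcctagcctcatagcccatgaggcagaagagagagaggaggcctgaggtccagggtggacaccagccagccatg

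Klf3: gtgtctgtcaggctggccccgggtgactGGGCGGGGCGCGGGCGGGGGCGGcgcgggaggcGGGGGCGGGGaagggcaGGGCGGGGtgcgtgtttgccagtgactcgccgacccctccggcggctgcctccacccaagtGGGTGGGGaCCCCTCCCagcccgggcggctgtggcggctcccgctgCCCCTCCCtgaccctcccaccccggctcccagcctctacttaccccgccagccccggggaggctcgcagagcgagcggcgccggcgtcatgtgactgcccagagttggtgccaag

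Klf4: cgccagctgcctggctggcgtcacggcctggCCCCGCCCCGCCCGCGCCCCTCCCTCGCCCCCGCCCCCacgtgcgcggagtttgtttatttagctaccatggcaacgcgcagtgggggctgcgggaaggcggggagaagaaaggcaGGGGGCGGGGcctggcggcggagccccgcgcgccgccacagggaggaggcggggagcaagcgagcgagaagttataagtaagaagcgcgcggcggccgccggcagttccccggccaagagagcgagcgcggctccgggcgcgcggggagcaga

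Likeness between genes was described as the root mean square distance between log2 values centred over the 6 arrays, among 10746 genes at or above the median level. Small distances follow partly from the low spread of a gene, and all points share the same 6 arrays. The nearest to Klf1 were Ly6e, a surface antigen gene, at 0.0153 and Mapk14, the p38 kinase, at 0.0171, and to Klf3 Fam126a (0.0249) and Ccsap (0.0273). For Klf4 they were Il6ra, the interleukin-6 receptor, at 0.111 and Nfkbid, a nuclear inhibitor of NF-kappaB, at 0.124. For Klf2 they were Tlr1, a Toll-like receptor, at 0.095 and Rasgrp1, a Ras activator of lymphocytes, at 0.101. Klf6 lay nearest to Glud1 (0.0492) and Plekha2 (0.0522), Klf10 to Slc25a10 (0.0382) and Dtnb (0.0403), Klf9 to Bbs7 (0.0896) and Oas3 (0.0989), and Klf13 to Pou3f4 (0.0302) and 1700001P01Rik (0.0511).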

How the data were processed

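Deposited values were probe-set intensities on a linear scale that the authors made with RMA, per the submitters' processing notes. Its software, version and background step are not given in the sources used here. Rounded to 2 decimals, log2 gave back 100% of the deposited values (tolerance 0.006), the lowest of which was 1, so log2 was taken with no pseudocount or further normalization. RMA makes array distributions alike, which can hide a shift of most transcripts. Detection calls were not used, and the number of arrays limits precision.

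The table held 45101 probe sets. After 64 controls were left out, 45037 were tested for KO minus WT with limma 3.58.1 in R 4.3.3 (lmFit, eBayes, no covariate, Benjamini-Hochberg over all probe sets), checked on simulated data. Names came from GEO's platform annotation: 34945 tested probe sets had 1 gene, 932 several and 9160 none. Symbols were updated through RefSeq gene identifiers (GRCm38.p6). For lists, a gene was its probe set with the highest mean. Disagreement between probe sets was fitted on per-array differences from that probe set.

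The 8 members and 13 other lists (187 symbols with the members, 169 measured) were chosen with earlier results of these data known. Named genes were all KLF probe sets, per list up to 3 called genes or otherwise the 2 with the smallest p, and the 2 nearest patterns per member. Tfrc, Slc4a1, Cd3g, Hbb-b2 and the KLF1-activated genes called only with the intensity trend fall outside this rule and were chosen after their values were seen. The same holds for S100a8, S100a9, Adgre1, Vcam1, Mertk, C1qa, C1qb, Ms4a7, Sin3b, Hdac3, Mef2a and Mef2d. Alternatives were an intensity trend with robust prior, repeated quantile normalization, cyclic loess, a filter keeping probe sets above the median value on at least 3 arrays, array weights, unmoderated variances, averaged probe sets and leaving out each mouse.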

Additional observations from a re-analysis of the deposited data

How the results depend on the processing

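The count of KLF probe sets called, 0, became 3 with the intensity trend and robust prior and 2 with the filter on dim probe sets, and stayed 0 under renewed quantile normalization, cyclic loess, array weights, unmoderated variances and without any 1 mouse. Over all probe sets 160 (0.355%) were called, 1592 (3.53%) with the trend, 1114 (4.89% of those kept) with the filter and 19 with unmoderated variances. Without 1 mouse it was 8 to 23, with 8 without KO 548 and 22 or 23 without each of the others. Renewed quantile normalization called 157 higher and 77 lower, against 83 and 77. Genes called in the 13 other lists, 0, became 15 with the trend, 2 with the filter (Klf3 and Mef2c) and 1 with probe sets averaged (Xpo7, -0.71), and stayed 0 elsewhere. With the trend, 2.04% of all genes were called lower and 2.37% higher. Probe set disagreements numbered 8, 23 with the filter, 0 with unmoderated variances and 0 to 9 without 1 mouse. The cause of these moves was not tested.

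Directions reversed only for KLF probe sets near 0. 1436952_at of Klf9 was at 0.02 under renewed quantile normalization and 0.02 under cyclic loess. Without 1 mouse it ran from -0.15 to 0.07, 1428288_at from -0.29 to 0.07, 1428289_at from -0.25 to 0.07, 1456341_a_at from -0.12 to 0.19, 1459718_x_at of Klf6 from -0.26 to 0.03 and 1432543_a_at of Klf13 from -0.04 to 0.15. No paired analysis was made, because the labels used name no pairing of KO with WT mice. Dim probe sets, 3 of Klf9 and 1 of Klf6 lying under the array medians, limit what can be said of those readings.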
